A study of Mus musculus with 6 samples.

Results

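The uroplakins were followed as a family of 6 genes: Upk1a, Upk1b, Upk2, Upk3a, Upk3b and Upk3bl. The members were taken by name and matched by Ensembl ID in the expression table of each library, a rule that uses no measured value. All 6 were listed in every table, among 14347 genes common to the 6 tables once mitochondrial and ribosomal protein genes had been set aside.

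Uroplakins are membrane proteins of the urothelium, the stratified epithelium that lines the bladder. Upk1a and Upk1b encode tetraspanins, which cross the membrane repeatedly, whereas Upk2, Upk3a and Upk3b encode partners that cross it once. In the endoplasmic reticulum Upk1a pairs with Upk2 and Upk1b pairs with Upk3a, and the pairs assemble into the crystalline plaques that cover the apical surface of umbrella (superficial) cells and contribute to the permeability barrier. Upk3b is an alternative partner of Upk1b and is also known from mesothelial cells. Upk3bl encodes a protein related to Upk3b. Below the superficial cells lie intermediate cells and, on the basement membrane, basal cells that express Krt5 and Krt14.

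The bladder mucosa of 8-week-old wild type C57BL/6 mice was dissociated and profiled by droplet-based single-cell RNA sequencing, with 2 libraries in each of 3 groups. Healthy mice received no cyclophosphamide (CPP), a cytotoxic drug whose metabolites injure the urothelium. Acute mice were collected 48 hours after 1 injection of 150 mg/kg, and chronic mice on day 11, after 4 injections of 75 mg/kg. Per the study's methods, each group held males and females, the mucosa was peeled from the muscle and digested, and red cells and debris were removed on a density gradient. The library is the unit of replication here, and animals within a library cannot be told apart.

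After filtering, 50172 cells were kept, of which 37842 were urothelial and 10421 mesenchymal. Total unique molecular identifiers (UMIs) per library ran from 54604109 to 111985678, and the median UMIs per barcode from 5530.0 to 9138. Pairs of libraries shared 36 to 229 cell barcodes, 0.673% to 2.28% of the smaller library. The chronic 2 library held only 189 mesenchymal cells, against 1426 in chronic 1, and its stromal values rest on those. The study's methods state that the libraries were handled in batches. Which library was in which batch is not given in the sources used here, so no value within a batch can be given, and batch and group cannot be told apart in the comparisons of CPP. Clustered without integration, the largest urothelial cluster held 8145 cells of chronic 1 among 8484, and the next held 4247 of healthy 1 and 3224 of acute 1 among 7601.

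Urothelial cells were sub-clustered without the 6 uroplakins, and sub-clusters were assigned to layers from other markers (Krt5, Krt14, Krt15, Trp63, Itga6, Itgb4, Col17a1 and Cd44 for basal cells, and Krt20, Krt18, Acer2 and Clu for superficial cells). Uroplakin values therefore did not define the layers, although genes that vary with them did. Summed over its list, the basal markers ranged over the 6 libraries from 5152 to 7442 CPM in basal (UMIs of a gene per 1000000 UMIs summed over the cells of a class in a library), 2541 to 3925 in intermediate and 428 to 911 in superficial cells. The superficial markers ranged from 2102 to 2897, 3808 to 4626 and 8106 to 12854 CPM in the same order. Mesenchymal cells, which should not make uroplakins, served as the reference for free RNA. They carried 21309 to 43043 CPM of 7 mesenchymal markers. They also carried 415 to 2844 CPM of 6 general urothelial markers, against 4723 to 8124 in basal cells.

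Each member lies in a locus of its own on the mouse genome build GRCm38 (GENCODE M21 annotation), and no annotated gene overlaps any of them. Upk1a (ENSMUSG00000006313) lies at chr7:30603092-30612847 on the minus strand with 8 exons, and Upk1b (ENSMUSG00000049436) at chr16:38773184-38800328 on the minus strand with 8 exons. The partner genes Upk2 (ENSMUSG00000041523) and Upk3a (ENSMUSG00000022435) lie at chr9:44452715-44454976 on the minus strand with 5 exons and at chr15:85017141-85022547 on the plus strand with 6 exons. Upk3b (ENSMUSG00000042985) lies at chr5:136038496-136046487 on the plus strand with 6 exons, and Upk3bl (ENSMUSG00000006143) at chr5:136054492-136064326 on the plus strand with 6 exons. These related neighbours share a strand and are separated by 8004 bases with 0 annotated genes between them.

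Because Upk3b and Upk3bl are neighbours whose levels ran in opposite directions along the layers, the promoters of both are shown, with those of Upk1a and Upk3a as examples of a tetraspanin gene and a partner gene that rose. The windows come from RefSeq (GRCm38.p6), cover 250 bases before to 50 bases after the RefSeq transcription start, and are written 5′ to 3′ on the strand of the gene. Upk3b is read at chr5:136038246-136038545 and Upk3bl at chr5:136057017-136057316, both on the plus strand, Upk3a at chr15:85016891-85017190 on the plus strand and Upk1a at chr7:30612685-30612984 on the minus strand. The RefSeq starts of Upk3bl and Upk1a lie inside the GENCODE genes. Capitals mark matches to the motifs that were searched.
Upk3b: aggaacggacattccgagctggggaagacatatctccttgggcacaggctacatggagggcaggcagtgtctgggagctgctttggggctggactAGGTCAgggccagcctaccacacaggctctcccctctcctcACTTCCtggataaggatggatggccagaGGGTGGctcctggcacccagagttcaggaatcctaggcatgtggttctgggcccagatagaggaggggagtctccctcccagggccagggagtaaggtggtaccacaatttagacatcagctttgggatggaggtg
Upk3bl: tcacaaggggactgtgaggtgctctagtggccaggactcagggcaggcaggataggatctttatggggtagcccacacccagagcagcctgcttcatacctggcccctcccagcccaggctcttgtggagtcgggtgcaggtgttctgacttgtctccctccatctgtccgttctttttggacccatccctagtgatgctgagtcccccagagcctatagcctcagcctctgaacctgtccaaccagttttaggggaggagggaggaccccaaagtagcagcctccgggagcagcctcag
Upk3a: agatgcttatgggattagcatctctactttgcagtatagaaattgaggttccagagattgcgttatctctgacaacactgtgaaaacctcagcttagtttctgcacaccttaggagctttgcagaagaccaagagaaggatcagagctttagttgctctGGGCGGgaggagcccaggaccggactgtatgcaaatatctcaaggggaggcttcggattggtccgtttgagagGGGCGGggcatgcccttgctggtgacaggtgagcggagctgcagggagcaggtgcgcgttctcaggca
Upk1a: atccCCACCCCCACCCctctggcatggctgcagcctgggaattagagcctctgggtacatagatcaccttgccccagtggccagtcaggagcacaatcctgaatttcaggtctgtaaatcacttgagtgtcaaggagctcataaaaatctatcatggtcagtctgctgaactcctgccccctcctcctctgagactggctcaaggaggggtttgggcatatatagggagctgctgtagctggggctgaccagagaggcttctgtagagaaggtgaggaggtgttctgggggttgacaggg

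The 10 short motifs in the search were read on both strands of these windows, and the share that held each was also taken over all 27025 RefSeq promoters of the same length. The Upk3a window held the KLF/SP box GGGCGG at bases -91 and -18 from the start, a box found in 35.9% of all promoters. The CACCC box (CCACCC) occurred at bases -246 and -240 of Upk1a and, on the opposite strand, at base -86 of Upk3b, and in 30.9% of all promoters. Upk3b also held a nuclear receptor half-site (AGGTCA, base -155, 16.0% of all promoters) and an ETS motif (GGAAGT on the opposite strand, base -114, 24.1% of all promoters). No searched motif occurred in the Upk3bl window. The remaining motifs matched none of the 4 windows: AGATAAG and TGATAA for GATA factors (3.07% and 9.26% of all promoters, with overlapping letters), TGTTTAC and TGTTTGC for FOX factors (3.55% and 5.04%), TGANTCA for AP-1 (7.93%) and TATAAA (14.2%). A match is a run of letters and was not tested as a binding site.

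Along the layers, 5 of the 6 members rose from basal to intermediate to superficial cells, and Upk3bl fell. In the comparison of superficial with basal cells within libraries, the increases ran from 5.12-fold for Upk3b to 12.6-fold for Upk3a, whereas Upk3bl was 20.3-fold lower. All 6 members passed the threshold in each of the 3 layer comparisons (edgeR quasi-likelihood test with the library as a block, Benjamini-Hochberg adjusted p below 0.05). The background was high, since 43.7% of all genes tested passed between intermediate and basal cells (22.3% higher and 21.5% lower). Between superficial and intermediate cells 55.4% passed (27.2% and 28.2%), and between superficial and basal cells 65.5% (33.1% and 32.4%). Levels by layer are CPM over the non-cycling cells of a layer. Transcripts are counted once at the 3′ end and are not scaled to length, so a member is compared between cells and not with another member.

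The tetraspanin gene Upk1a stood in basal cells at 1354 and 1283 in the healthy, 766 and 750.0 in the acute and 1992 and 1390.1 in the chronic libraries (CPM). In intermediate cells it stood at 3527 and 3552 in the healthy, 2408 and 2193 in the acute and 4269 and 3460.4 in the chronic libraries. Each intermediate value lay above all 6 basal values. In superficial cells the values were 7035 and 8688 in the healthy, 6453 and 6249 in the acute and 10609 and 8713 in the chronic libraries. Each superficial value lay above all 6 intermediate values. Over the 6 libraries the mean was 1256 ± 462 CPM in basal, 3235 ± 784 in intermediate and 7958 ± 1683 in superficial cells (SD, n = 6). The log2 fold change was 1.52 (SE 0.084) from basal to intermediate cells (edgeR adjusted p = 3.54e-18) and 1.40 (SE 0.084) from intermediate to superficial cells (adjusted p = 6.67e-18). The chronic 1 library was highest in basal cells and the acute libraries lowest.

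The other tetraspanin gene, Upk1b, stood in basal cells at 641 and 704 in the healthy, 580.0 and 435 in the acute and 824 and 683 in the chronic libraries. In intermediate cells it stood at 1466 and 1518 in the healthy, 1482 and 980.2 in the acute and 1666 and 1455 in the chronic libraries. Basal and intermediate ranges did not overlap. In superficial cells the values were 3543 and 4756 in the healthy, 4374 and 3350.2 in the acute and 4553 and 3818 in the chronic libraries. Intermediate and superficial ranges did not overlap either. On the mean of the 6 libraries, 645 ± 130.5 CPM were counted in basal, 1428 ± 232 in intermediate and 4066 ± 575 in superficial cells (SD, n = 6). Its log2 fold change was 1.27 (SE 0.090) from basal to intermediate cells (edgeR adjusted p = 4.59e-15) and 1.61 (SE 0.090) from intermediate to superficial cells (adjusted p = 8.65e-19).

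The partner of Upk1a, Upk2, stood in basal cells at 189 and 241 in the healthy, 133 and 154 in the acute and 502 and 229 in the chronic libraries. In intermediate cells it stood at 715 and 932 in the healthy, 459 and 561 in the acute and 1125 and 648 in the chronic libraries. Here the ranges met, since the lowest intermediate value, in acute 1, lay below the highest basal value, in chronic 1. In superficial cells the values were 1631 and 2712 in the healthy, 1344 and 1782 in the acute and 2652 and 1886 in the chronic libraries. All superficial values lay above all intermediate ones. Mean levels were 241 ± 134 in basal, 740.1 ± 247 in intermediate and 2001 ± 558 CPM in superficial cells (SD, n = 6). Within libraries the change on the log2 scale was 1.79 (SE 0.11) from basal to intermediate cells (edgeR adjusted p = 2.02e-16) and 1.55 (SE 0.11) from intermediate to superficial cells (adjusted p = 1.23e-15).

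Upk3a, the partner of Upk1b, was counted in basal cells at 595 and 514 in the healthy, 573 and 471 in the acute and 1365 and 594 in the chronic libraries. Intermediate cells held 3247 and 2511 in the healthy, 3060.4 and 2479 in the acute and 4284 and 2412 in the chronic libraries. Chronic 1 was the highest basal library and still lay below every intermediate value. Superficial cells held 7095 and 7284 in the healthy, 7575 and 5993 in the acute and 8345 and 6159.5 in the chronic libraries. The 3 layers did not overlap, with means of 685 ± 337, 2999 ± 717 and 7075 ± 885 CPM (SD, n = 6). From basal to intermediate cells the log2 fold change was 2.30 (SE 0.13), the largest of the 6 members in that comparison (edgeR adjusted p = 2.44e-18). From intermediate to superficial cells it was 1.36 (SE 0.12) (adjusted p = 1.01e-12).

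Upk3b, the alternative partner of Upk1b, was counted at lower numbers, and changed least of the 5 members that rose between superficial and basal cells. Its basal values were 144 and 132 in the healthy, 79.3 and 72.1 in the acute and 188 and 129.9 in the chronic libraries. Intermediate values were 318 and 314 in the healthy, 239 and 227 in the acute and 349 and 280.4 in the chronic libraries, and superficial values 456 and 541 in the healthy, 493 and 540.0 in the acute and 665 and 503 in the chronic libraries. The layers did not overlap, with means of 124 ± 42.9, 288 ± 47.7 and 533 ± 72.2 CPM (SD, n = 6). Its log2 fold change was 1.36 (SE 0.10) in the first step (edgeR adjusted p = 1.75e-14) and 0.997 (SE 0.094) in the second (adjusted p = 5.25e-12).

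Upk3bl had the reverse order. Its basal values were 95.5 and 67.4 in the healthy, 80.3 and 59.97 in the acute and 60.4 and 34.4 in the chronic libraries, and those in intermediate cells 10.9 and 14.5 in the healthy, 16.3 and 15.5 in the acute and 13.1 and 8.58 in the chronic libraries. In superficial cells the gene was nearly gone, at 1.99 and 4.41 in the healthy, 1.82 and 1.95 in the acute and 5.36 and 1.55 in the chronic libraries. The 3 layers again did not overlap, with means of 66.3 ± 20.7, 13.1 ± 2.93 and 2.85 ± 1.62 CPM (SD, n = 6). The log2 fold change was -2.20 (SE 0.12) from basal to intermediate cells (edgeR adjusted p = 4.90e-18) and -2.14 (SE 0.23) from intermediate to superficial cells (adjusted p = 1.21e-10). The family was thus made of 5 members that were lowest in basal cells and 1 that was highest there. From basal to intermediate cells the CPM ranges of the 6 libraries did not overlap for 4 members that were higher (as for 2.95% of all genes) and for Upk3bl, which was lower (as for 4.55%), while those of Upk2 overlapped. From intermediate to superficial cells the ranges were apart for 5 higher members (6% of all genes) and 1 lower (8.16%), and from basal to superficial cells again for 5 (8.78%) and 1 (15.6%).

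**Figure D1:**
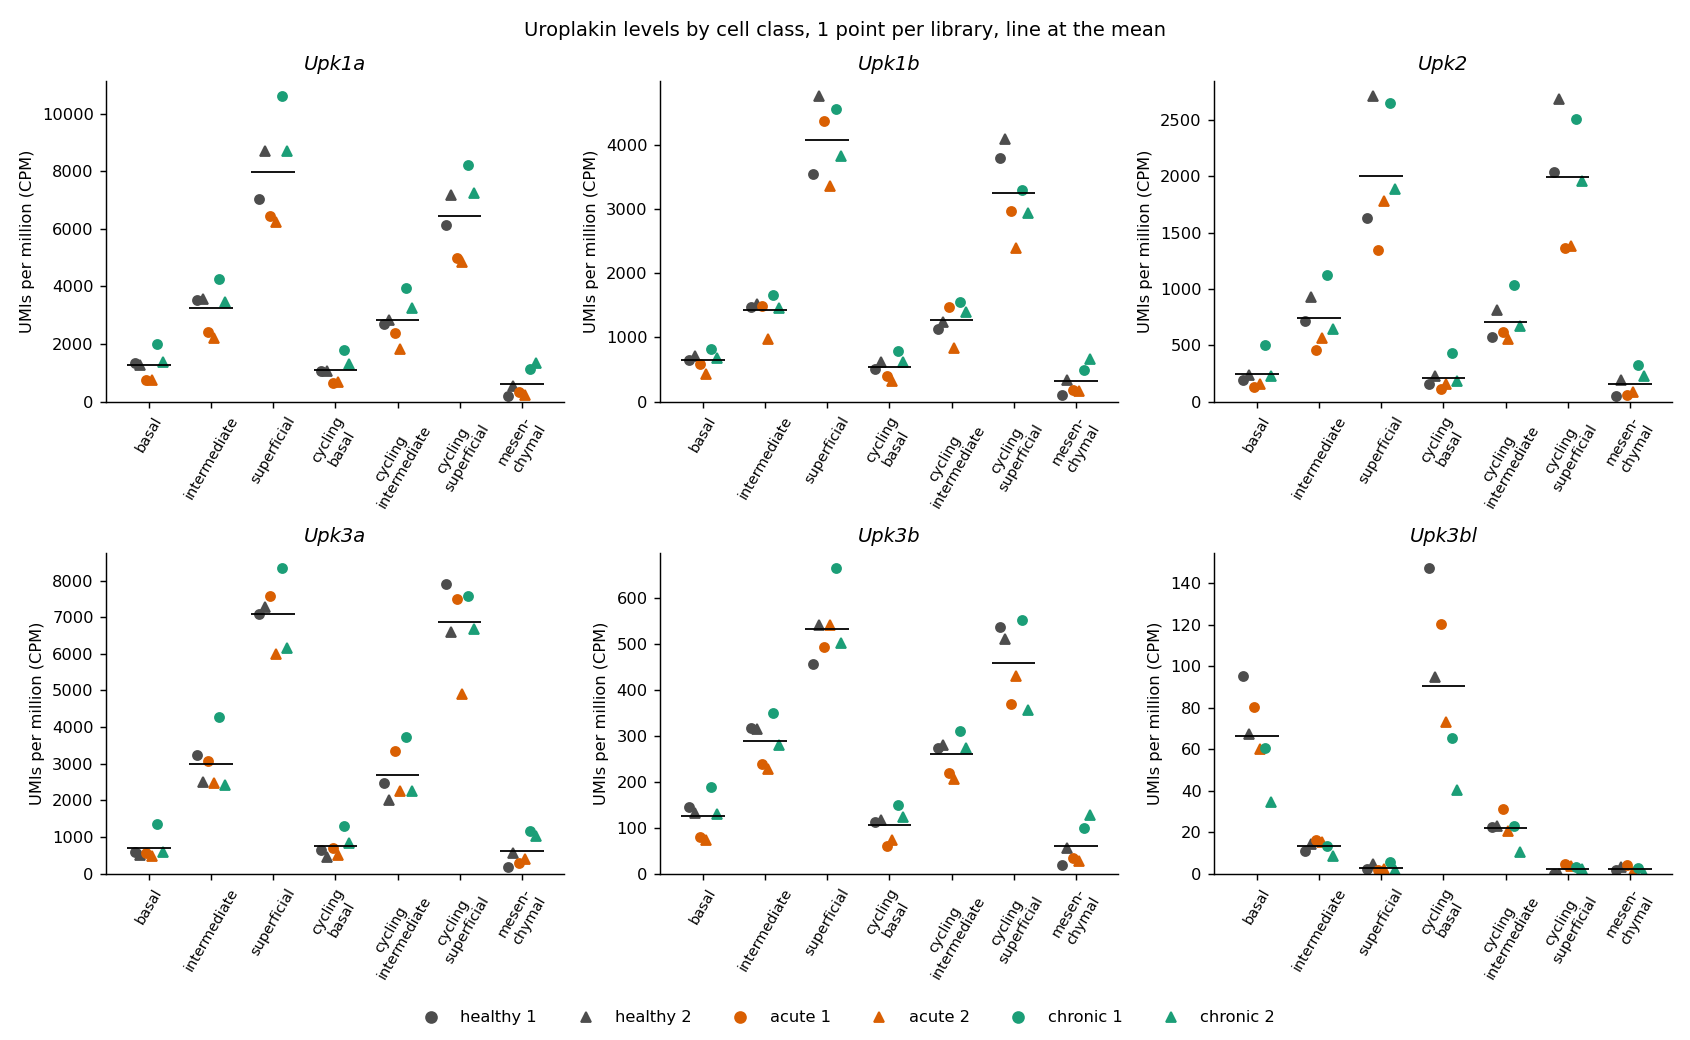
Level of each uroplakin (CPM) in basal, intermediate, superficial and cycling urothelial cells and in mesenchymal cells. Each point is a library and the bar is the mean of the libraries. The panels of 5 members climb from basal to superficial cells, for Upk3a from a mean of 685 to 7075, while Upk3bl descends from 66.3 to 2.85.

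How much of the basal signal exceeded free RNA was asked by setting basal cells beside mesenchymal cells of the same library. Upk3bl stood far above the stromal level in basal cells, whereas the difference of Upk3a did not pass the test. In CPM, 5 of the 6 members were higher in basal than in mesenchymal cells (edgeR adjusted p below 0.05, against 68.4% of all genes called in either direction and 34.3% called higher). The log2 fold changes were 1.17 (SE 0.27) for Upk1a, 1.15 (SE 0.26) for Upk1b, 0.69 (SE 0.21) for Upk2 and 1.19 (SE 0.27) for Upk3b. The Upk2 change was the smallest of those called (adjusted p = 0.0133). For Upk3a the log2 fold change was 0.25 (SE 0.26), which did not pass (adjusted p = 0.402, 95% interval -0.25 to 0.75). For Upk3bl it was 5.05 (SE 0.28) (adjusted p = 5.38e-08). The CPM ranges of the 6 libraries did not overlap for 1 member, Upk3bl, as for 15% of all genes in that direction. These calls moved with the definition of basal cells and with doublets. The Upk3a log2 fold change was 1.497 (adjusted p = 0.009) with clusters made without integration, 1.07 (adjusted p = 0.0084) with layers assigned cell by cell from marker scores and -0.082 (adjusted p = 0.747) with doublets kept, and it was -0.0047 without healthy 1. That of Upk2 was 0.35 (adjusted p = 0.1) with doublets kept.

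Macrophages and NK/T cells, which should not make uroplakins either, were not tested against basal cells, and their levels are given as values. Macrophages held Upk3a at 616 and 709.7 in the healthy, 530.3 and 693 in the acute and 1694 and 724 in the chronic libraries, above the basal value in 5 of 6 libraries. Their Upk2 level, 211 ± 23.8 CPM in the healthy libraries (SD, n = 2), was near that of basal cells, at 215 ± 36.4, while the acute level was 107 against 143. Healthy macrophages were below basal cells for Upk1a (718 against 1318), Upk1b (366 against 672) and Upk3b (73.0 against 138). In the healthy NK/T cells, of which there were 47 and 32, Upk1a stood at 1876 and 1698, above the basal values of 1354 and 1283, and Upk1b and Upk3b averaged 828 ± 119 and 204 ± 6.97. Their Upk2 and Upk3a means, 355 and 1460, lay above the healthy basal means of 215 and 555, and that of Upk3bl below (39.2 against 81.4). The 253 NK/T cells of acute 2 lay below its basal cells for Upk1a (611 CPM against 750.0) and Upk1b (313 against 435). For Upk2, Upk3a and Upk3b they lay above the acute basal means, at 227 against 143, 1013 against 522 and 86.4 against 75.7. Upk3bl there was at 8.94 against 70.2. Endothelial and mural cells were not tested either. In the acute libraries they held Upk3a at 885 ± 166 and 642 ± 138 CPM, against 522 ± 72.7 in basal cells (SD, n = 2). Both lay below the acute basal means for Upk1a, Upk1b and Upk3b. Endothelial cells of 1 healthy library held 378 CPM of Upk3a, against a healthy basal mean of 555. The test of basal cells therefore concerns mesenchymal cells alone.

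Since free RNA adds molecules per droplet, UMIs per cell were also compared. The mean number of Upk3a UMIs in a mesenchymal cell was 0.703 and 1.26 in the healthy, 1.08 and 1.29 in the acute and 2.504 and 3.67 in the chronic libraries. In a basal cell it was 2.75 and 2.05 in the healthy, 2.55 and 2.38 in the acute and 4.35 and 2.51 in the chronic libraries. Basal cells were higher in 5 of the 6 libraries and lower in chronic 2. The mesenchymal mean came to 64.6% of the basal one on average, with a range over libraries of 25.6% to 147%. The mean number of Upk1a UMIs in a mesenchymal cell was 0.785 and 1.23 in the healthy, 1.20 and 0.772 in the acute and 2.41 and 4.71 in the chronic libraries. In a basal cell it was 6.26 and 5.11 in the healthy, 3.41 and 3.79 in the acute and 6.34 and 5.86 in the chronic libraries. Basal cells were higher in 6 of 6 libraries for Upk1a, Upk1b, Upk2 and Upk3b, and the mesenchymal level averaged 35.1%, 35.5%, 44.8% and 35.2% of the basal one. For each of Upk1a, Upk1b, Upk2, Upk3a and Upk3b, both chronic libraries held more UMIs per mesenchymal cell than the other 4 libraries. Setting aside chronic 2, with its few mesenchymal cells, gave an Upk3a log2 fold change of 0.48 between basal and mesenchymal cells (edgeR adjusted p = 0.0738). When the mean of a mesenchymal cell was subtracted from each cell of its library, the log2 fold change between superficial and basal cells became 3.58 for Upk1a, 3.56 for Upk1b, 4.22 for Upk2, 2.97 for Upk3b and -4.67 for Upk3bl, from 2.92, 2.88, 3.34, 2.36 and -4.34 before. No value is given for Upk3a, of which the subtraction left 0 UMIs in basal cells of chronic 2. With layers assigned cell by cell and nothing subtracted, the values of these 5 were 2.25, 2.31, 2.48, 1.74 and -3.58, and that of Upk3a was 2.61. The members with a value passed in both forms.

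Upk3bl behaved otherwise. Its mean UMIs in a basal cell were 0.441 and 0.269 in the healthy, 0.358 and 0.303 in the acute and 0.192 and 0.145 in the chronic libraries. Mesenchymal sums held 11, 13, 9, 13, 8 and 0 UMIs of the gene in the same order of libraries, so that 2.04% of the basal level was found per mesenchymal cell. In CPM the Upk3bl level of superficial cells, 1.55 to 5.36, overlapped that of mesenchymal cells, 0 to 4.24. Per cell, superficial cells held a mean of 0.0154 to 0.0381 Upk3bl UMIs over the libraries and mesenchymal cells 0 to 0.0157, and the superficial cells were the deeper ones.

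The make-up of the uroplakin UMIs in mesenchymal cells was then set against that of all urothelial cells of the library. Of all uroplakin UMIs, Upk1a took 34.2% ± 4.59 in mesenchymal and 36.9% ± 3.84 in urothelial cells (SD, n = 6). Upk3a took 34.8% ± 4.78 and 33.9% ± 4.52. The largest relative difference among the 5 abundant members was for Upk3b, at 3.38% ± 0.334 against 3.07% ± 0.339. None of the 6 shares passed the threshold (exact two-sided paired permutation test, adjusted over the 6 members). A single member that differed in all libraries could not pass once adjusted, so the test cannot show that the make-up was alike. The smallest p was for Upk1b, higher in mesenchymal cells of 6 of 6 libraries at 18.5% against 17.2% (exact p = 0.03125, the smallest that 6 pairs allow, adjusted p = 0.1875).

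**Figure D2:**
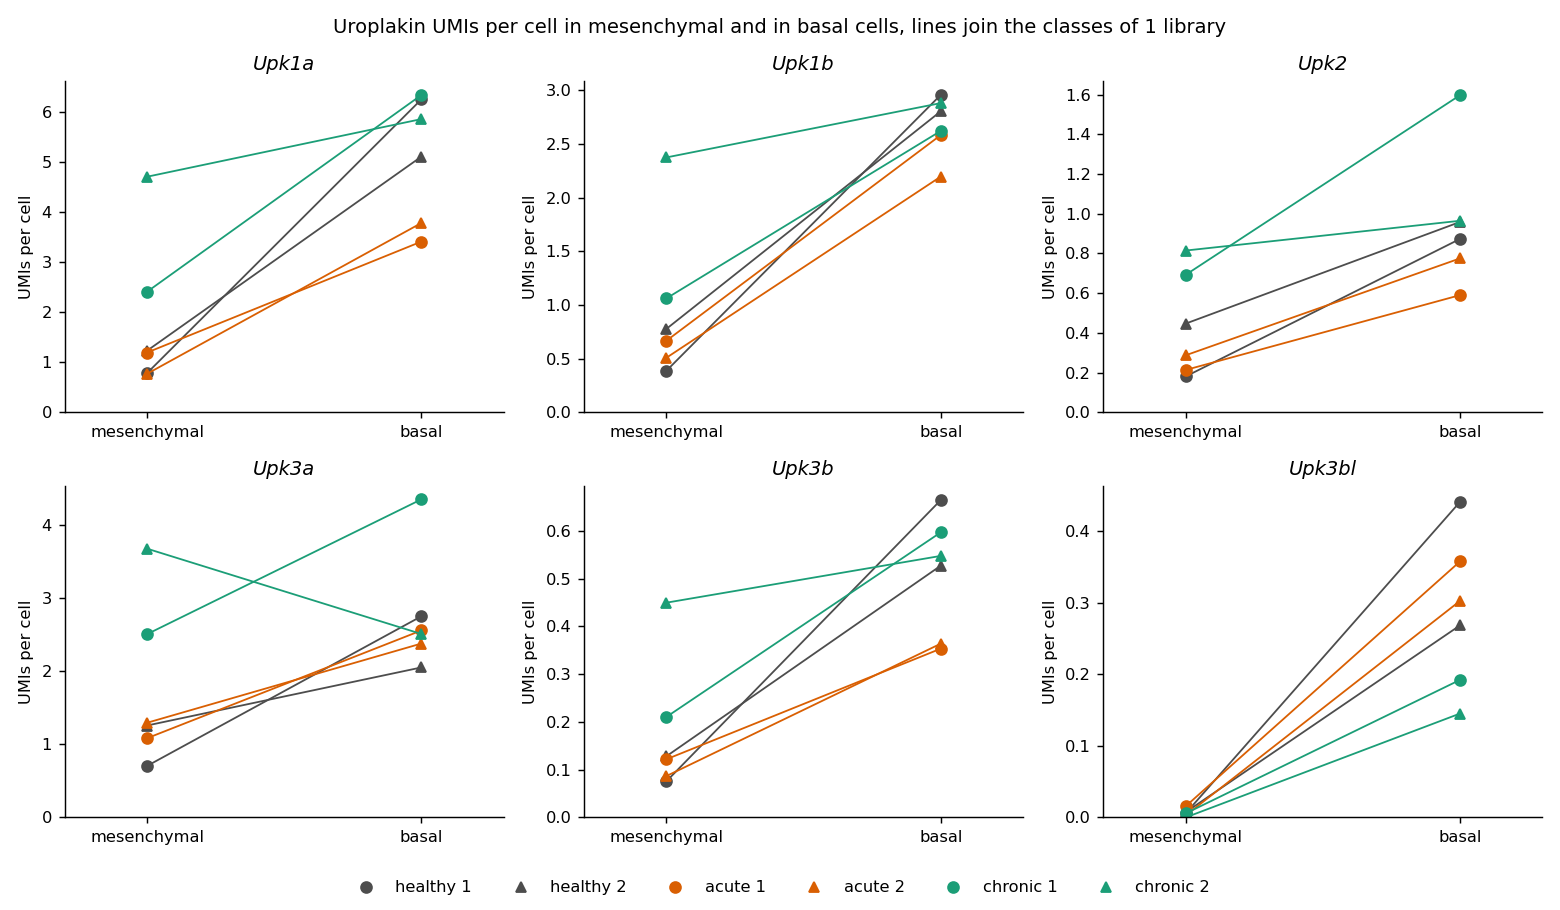
Uroplakin UMIs per cell in mesenchymal and basal cells, with a line joining the classes of each library. Lines climb in all libraries for Upk1a, Upk1b, Upk2 and Upk3b, the Upk3a line of chronic 2 falls from 3.67 to 2.51, and Upk3bl has the largest relative rise.

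The share of cells with at least 1 UMI gave the same order on a per-cell scale. Median UMIs per cell differed between classes, from 2839 to 4486 over the libraries in basal, 3923 to 5493 in intermediate, 6779.5 to 10862 in superficial and 1976 to 3646 in mesenchymal cells, so each cell was thinned to 2000 UMIs. Shallower cells were left out, 79 basal, 493 intermediate, 76 superficial and 2520 mesenchymal. Upk1a was then detected in 80.7% ± 11.7 of basal, 97.1% ± 2.495 of intermediate, 100.0% ± 0 of superficial and 52.3% ± 23.1 of mesenchymal cells (SD, n = 6). Upk2 was detected in 32.6% ± 14.8, 64.8% ± 12.5, 92.3% ± 3.98 and 22.7% ± 14.5 of the same classes. The corresponding shares of Upk3b were 19.9% ± 6.63, 40.8% ± 5.42, 64.6% ± 4.65 and 9.26% ± 5.87. Upk3bl ran the other way, at 11.5% ± 3.45 of basal, 2.84% ± 0.677 of intermediate, 0.551% ± 0.589 of superficial and 0.331% ± 0.307 of mesenchymal cells.

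Each member was compared between neighbouring layers, between superficial and basal cells, and between basal and mesenchymal cells, 24 comparisons in all. In 23 of them all 6 libraries changed the same way (exact two-sided paired permutation test, p = 0.03125, the smallest that 6 pairs allow, adjusted p = 0.0326). The exception was Upk3a between basal and mesenchymal cells, at 62.5% ± 15.0 and 53.3% ± 22.7 (exact permutation p = 0.1875, n = 6), so at this depth the Upk3a share in basal cells did not pass against that of cells taken as free of it. Without thinning it was higher in basal cells in 6 of 6 libraries (exact permutation p = 0.03125, adjusted p = 0.03125). Upk1b was detected in 65.6% ± 9.77 of basal and 37.8% ± 19.4 of mesenchymal cells. All 4 plaque genes (Upk1a, Upk1b, Upk2 and Upk3a) were detected together in 15.9% ± 12.7 of basal, 55.1% ± 13.9 of intermediate, 91.9% ± 4.14 of superficial and 8.40% ± 8.51 of mesenchymal cells. Without thinning, Upk1a was detected in 91.6% of basal and 61.5% of mesenchymal cells, Upk3a in 80.8% and 63.2%, and Upk3bl in 20.5% and 0.602%. At 4000 UMIs per cell, where 2249 mesenchymal cells remained, Upk3bl was the member that still passed between basal and mesenchymal cells, and the adjusted p of the other 5 ran from 0.0714 to 0.125 (exact permutation test). Of these mesenchymal cells chronic 1 held only 23 and chronic 2 only 41, while each library counts alike in the test. The 3 layer comparisons of Upk1a missed the threshold at that depth as well (adjusted p = 0.0714, 0.125 and 0.0714, exact permutation test), where 94.4% of basal, 99.7% of intermediate and 100.0% of superficial cells had a UMI.

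**Figure D3:**
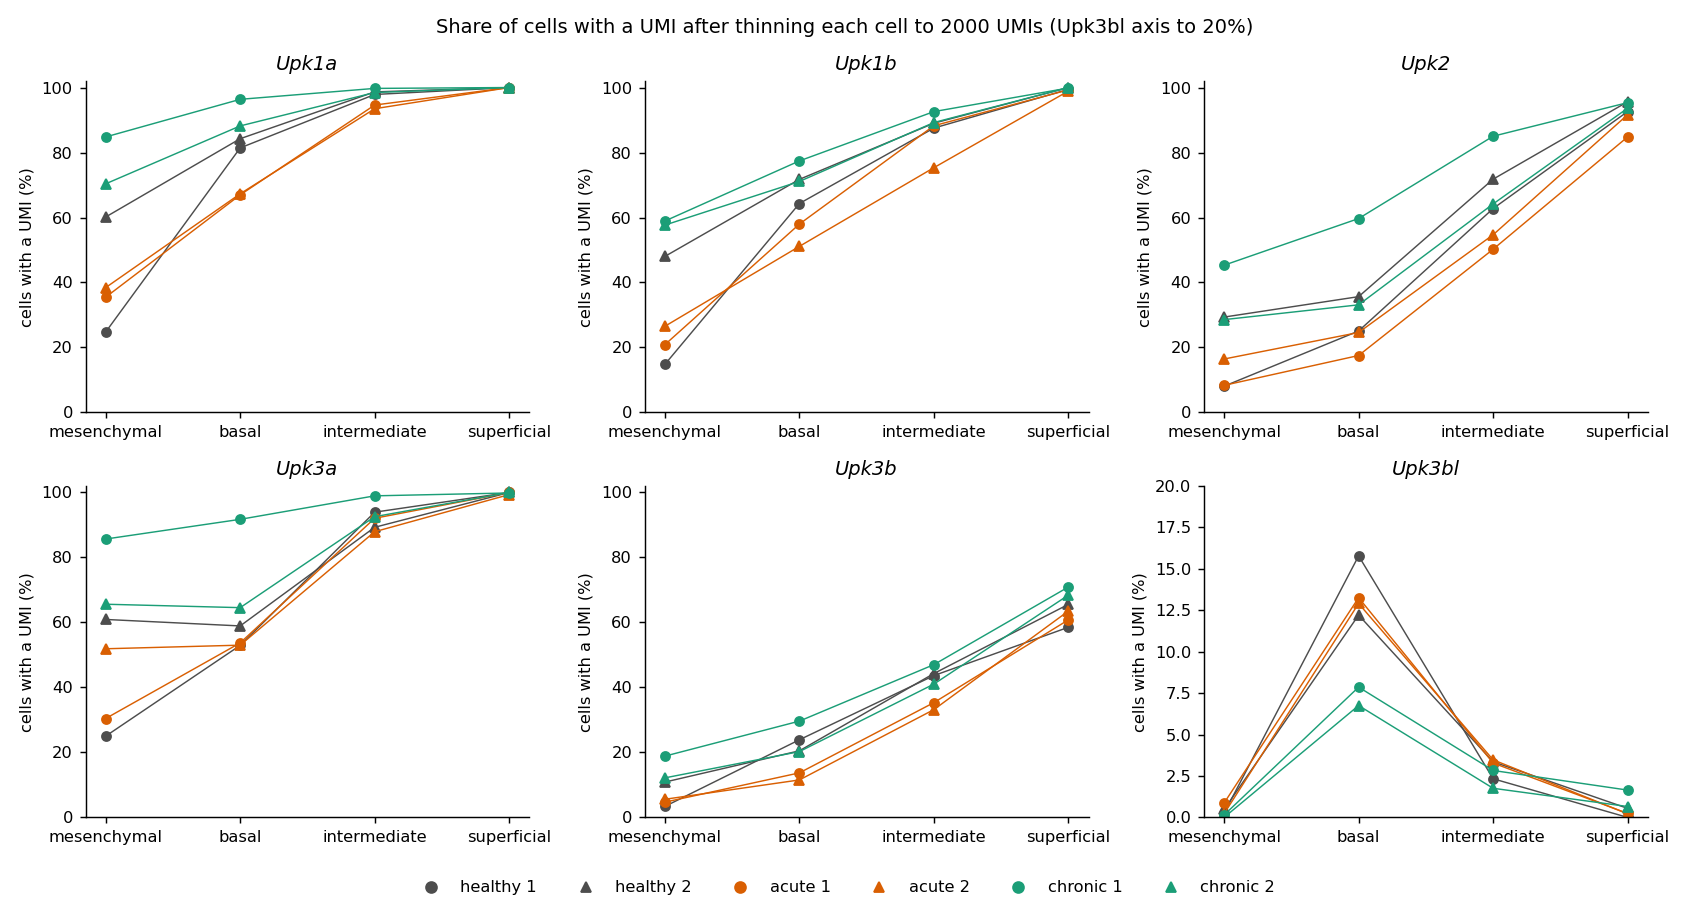
Share of cells with at least 1 UMI of each uroplakin after thinning every cell to 2000 UMIs (percent). Points are libraries, for basal, intermediate, superficial and mesenchymal cells. Upk3a stands at a mean of 62.5% in basal and 53.3% in mesenchymal cells, and Upk3bl at 11.5% in basal and 0.331% in mesenchymal cells.

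Together the 6 genes took 0.302% ± 0.105 of all UMIs in basal cells, 0.870% ± 0.177 in intermediate cells and 2.16% ± 0.323 in superficial cells, against 0.177% ± 0.124 in mesenchymal cells (SD, n = 6). Within the uroplakin UMIs, Upk1a took 41.3% ± 4.18 in basal and 36.6% ± 3.39 in superficial cells, and Upk3a took 22.4% ± 4.10 and 32.9% ± 3.25. The share of Upk3bl was 2.42% ± 1.06 in basal and 0.0126% ± 0.00525 in superficial cells. These shares depend on how well each 3′ end is captured, so only the change of a member between layers is described.

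The balance between the 2 tetraspanins and between their partners was followed as ratios of UMIs. Upk3a to Upk2, the partners of Upk1b and Upk1a, stood in basal cells at 3.15 and 2.14 in the healthy, 4.33 and 3.06 in the acute and 2.72 and 2.60 in the chronic libraries. In superficial cells the ratio was 4.35 and 2.69 in the healthy, 5.63 and 3.36 in the acute and 3.15 and 3.27 in the chronic libraries. Intermediate cells had the highest ratio of the 3 layers in each library, at 4.54 and 2.694 in the healthy, 6.67 and 4.42 in the acute and 3.81 and 3.72 in the chronic libraries, which was not tested and in healthy 2 differed little from the superficial 2.685. The ratio was higher in superficial than in basal cells in 6 of 6 libraries, by 0.31 ± 0.12 on the log2 scale (SD, n = 6, exact two-sided paired permutation p = 0.03125, adjusted over the 2 ratios 0.0625), and so missed the threshold once adjusted. The 6 pairs cannot give a smaller p. In mesenchymal cells, the reference for free RNA, the ratio was 3.88 and 2.81 in the healthy and 5.06 and 4.49 in the acute libraries. The chronic libraries held 3.61 and 4.51, and each mesenchymal ratio lay above the basal one of its library. How far free RNA set the basal ratio was not tested.

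Upk1b to Upk1a stood at 0.473 and 0.549 in the healthy, 0.757 and 0.580 in the acute and 0.414 and 0.492 in the chronic libraries in basal cells. In superficial cells it was 0.504 and 0.547 in the healthy, 0.678 and 0.536 in the acute and 0.429 and 0.438 in the chronic libraries. The mean difference of superficial and basal cells was -0.050 ± 0.11 on the log2 scale (SD, n = 6, exact permutation p = 0.28125). Intermediate cells had the lowest ratio of the 3 layers in each library, from 0.390 in chronic 1 to 0.616 in acute 1, which was not tested. The acute 1 library was the highest in basal, intermediate and superficial cells, and chronic 1 the lowest in all 3, while the order of the other libraries changed between layers.

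**Figure D4:**
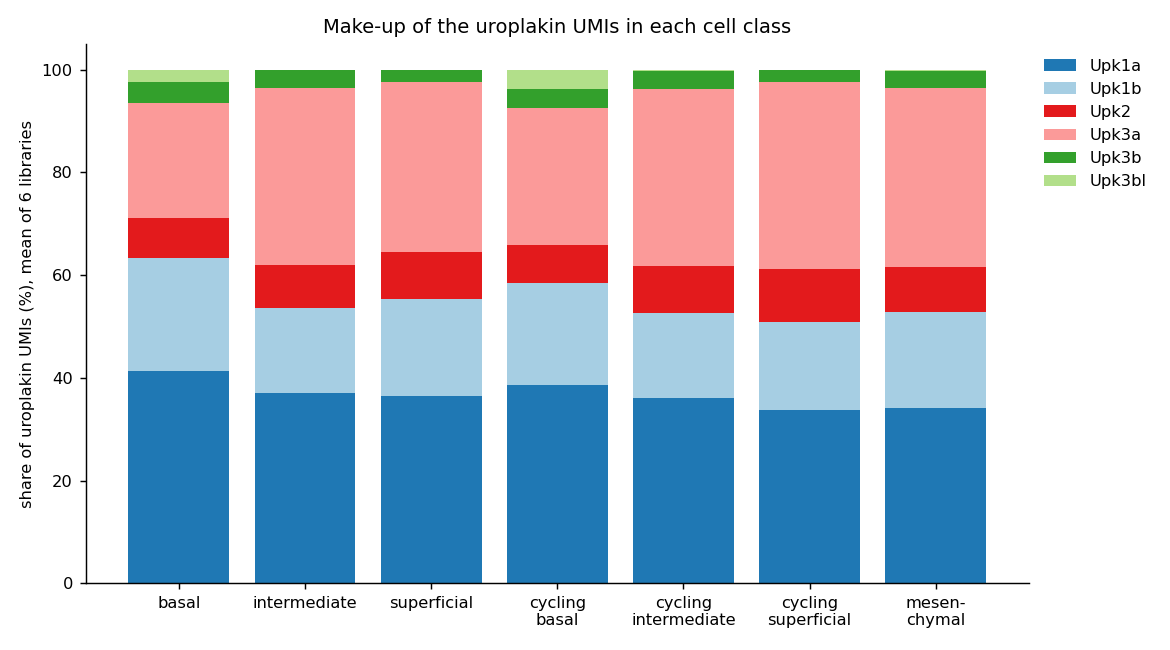
Share of each member among the uroplakin UMIs (percent) by cell class, in stacked bars that sum to 100. Upk3bl takes a mean of 2.42% in basal and 0.0126% in superficial cells, while Upk3a takes 22.4% and 32.9%.

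Cycling cells were set beside non-cycling cells of the same layer and library to see whether uroplakin levels differ with the cell cycle. Upk3bl was higher in cycling basal and cycling intermediate cells, whereas Upk1a, Upk1b and Upk3b were lower in cycling cells with superficial markers. The changes were small beside those between layers. The cells with superficial markers came from a sub-cluster of 3063 cells, 20.2% of them cycling, and another of 785 cells, 99.7% of them cycling, and the standardized mean of the superficial markers was 2.71 in the former and 1.48 in the latter. The part of this difference in the comparison was not tested. A cell was called cycling where its cell cycle score lay more than 2 median absolute deviations above the median, a cut on a continuous score. The healthy libraries held only 22 and 30 such cells with superficial markers, the acute 576 and 367 and the chronic 256 and 152.

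In the basal layer 2 of 6 members were called, against 18.7% of all genes (11% higher and 7.75% lower). Upk3bl rose by 0.44 (SE 0.13) on the log2 scale (edgeR adjusted p = 0.0126), and its cycling values were 147 and 95.1 in the healthy, 121 and 73.3 in the acute and 65.5 and 40.3 in the chronic libraries. Upk1b fell by 0.27 (SE 0.092, adjusted p = 0.0331). Without acute 1 neither passed, at 0.38 (adjusted p = 0.123) for Upk3bl and -0.23 (adjusted p = 0.164) for Upk1b. Upk1b also missed the threshold without healthy 1, acute 2 or chronic 2 (adjusted p = 0.0721, 0.129 and 0.0599). Among intermediate cells, where each sub-cluster held 5.12% to 26.9% cycling cells and none was made mainly of them, 1 member was called, against 1.28% of all genes and 1.19% called higher. This was again Upk3bl, with a log2 fold change of 0.72 (SE 0.15) (adjusted p = 0.0042) and cycling values of 22.4 and 23.1 in the healthy, 31.03 and 20.5 in the acute and 22.9 and 10.6 in the chronic libraries. Each cycling value was above the non-cycling value of its library in both layers. From a list of 19 regulators of urothelial differentiation, Klf4, lower in superficial than in basal cells, was also called higher in cycling intermediate cells (0.37, edgeR adjusted p = 0.0409). How the other regulators went in this comparison is not given here. Summed over the list of basal markers, cycling intermediate cells held 3509 to 4860 CPM over the libraries, against 2541 to 3925 in non-cycling ones. Of the cycling basal cells, the sub-cluster made of cycling cells held 537 of 787 in acute 1 and 11 of 401 in healthy 2, and its standardized basal marker mean was 1.82 against 1.43 in the largest basal sub-cluster. The part of these differences in the Upk3bl values was not tested. In basal cells Upk3bl also missed the threshold with DESeq2 (0.43, adjusted p = 0.082), with clusters made without integration (0.38, adjusted p = 0.316) and with cycling cells called at 4 median absolute deviations (0.39, adjusted p = 0.0665). There Upk1b missed it without integration (-0.16, adjusted p = 0.622), with layers assigned cell by cell (-0.33, adjusted p = 0.0649) and with free RNA subtracted (-0.34, adjusted p = 0.171). With layers assigned cell by cell, members other than Upk1b were called in cycling basal cells, as counted at the end. In an alternative chosen after the data were seen, only cells of the sub-clusters made mainly of cycling cells were kept as cycling, which left no cycling intermediate class. In basal cells Upk3bl then missed the threshold, at 0.38 (edgeR adjusted p = 0.0978), while Upk1b was at -0.50 (adjusted p = 0.00027) and Upk1a and Upk3b passed too, at -0.30 and -0.48 (adjusted p = 0.0238 and 0.0158).

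Among cells with superficial markers 3 of 6 members were called, all lower in cycling cells, against 31% of all genes in either direction and 18% lower. Upk1a in cycling superficial cells stood at 6128 and 7173 in the healthy, 5000.3 and 4855 in the acute and 8207 and 7247 in the chronic libraries, and fell by 0.44 on the log2 scale (SE 0.083, edgeR adjusted p = 5.72e-05). Upk1b fell by 0.47 (SE 0.089, adjusted p = 6.04e-05) and Upk3b by 0.37 (SE 0.10, adjusted p = 0.0035). The partner genes Upk2 and Upk3a had log2 fold changes of -0.15 (SE 0.11) and -0.18 (SE 0.12) that did not pass. With the cycling sub-clusters alone these 3 passed and so did Upk2, at -0.33 (adjusted p = 0.0453). Without acute 1 the Upk3b change was -0.28 (adjusted p = 0.0637). With layers assigned cell by cell from marker scores in place of sub-clusters, none of the 3 passed (Upk1a -0.18 (adjusted p = 0.327), Upk1b -0.24 (adjusted p = 0.162) and Upk3b -0.20 (adjusted p = 0.27)). Cycling superficial cells still held 6435 ± 1341 Upk1a CPM (SD, n = 6), and each of the 6 values lay above all non-cycling intermediate values.

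The effect of CPP was tested within each layer, between 2 acute or 2 chronic and 2 healthy libraries. No member passed in any of the 6 comparisons (edgeR, adjusted p from 0.976 upward). The background was low, since 0.0385% of all genes passed in acute basal cells and 0% in each of the other 5 comparisons. At the adjusted threshold DESeq2 called 12, 10, 8, 17, 55 and 9 genes in acute basal, acute intermediate, acute superficial, chronic basal, chronic intermediate and chronic superficial cells. At an unadjusted p below 0.05, edgeR marked 285, 319, 450, 455, 623 and 533 genes in the same order. With 2 libraries a group the values themselves are described.

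In acute basal cells 4 members (Upk1a, Upk1b, Upk2 and Upk3b) lay below both healthy libraries, where 16.8% of all genes did so and 28.8% did not overlap in either direction. Upk1a was at 758 ± 11.5 in acute against 1318 ± 50.8 CPM in healthy basal cells (SD, n = 2), a log2 fold change of -0.75 (SE 0.29). Upk3b was at 75.7 ± 5.12 against 138 ± 8.20, a log2 fold change of -0.82 (SE 0.29). Neither passed (edgeR unadjusted p = 0.0292 and 0.0185). Upk3a, the partner of Upk1b, overlapped the healthy range, with a log2 fold change of -0.045 (SE 0.39).

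In acute intermediate cells Upk1a, Upk2 and Upk3b lay below both healthy libraries (13.9% of all genes did) and Upk3bl above them (12% did, and 25.8% in either direction). The log2 fold changes were -0.60 (SE 0.20) for Upk1a, -0.66 (SE 0.33) for Upk2 and -0.41 (SE 0.20) for Upk3b. In acute superficial cells Upk1a and Upk3bl lay below both healthy libraries (14.6% of all genes did, and 29.8% were apart in either direction). Upk1a there was at 6351 ± 145 against 7861 ± 1169 CPM, a log2 fold change of -0.31 (SE 0.25). Upk1a thus lay below the healthy values in all 3 layers of the acute libraries, and it passed the test in none. The layers come from the same libraries and are not independent of each other. The share of all genes that did so in all 3 layers was not counted.

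In the chronic libraries Upk1a lay above both healthy values in basal cells and in superficial cells, where 12.7% and 18.3% of all genes did so and 29.9% and 32.5% were apart in either direction. It was at 1691 ± 426 in basal and 9661 ± 1340.3 in superficial cells, with log2 fold changes of 0.42 (SE 0.29) and 0.27 (SE 0.25). Upk3bl lay below both healthy values in chronic basal cells (17.2% of all genes did), with a log2 fold change of -0.72 (SE 0.35). No member was apart from the healthy range in chronic intermediate cells, where 32.8% of all genes were. The largest chronic values were those of Upk3a and Upk2 in basal cells, 0.90 (SE 0.40) and 0.83 (SE 0.40), which were 0.071 and 0.056 without chronic 1.

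Per mesenchymal cell both chronic libraries held the most Upk1a, Upk1b, Upk2, Upk3a and Upk3b UMIs, as given above. For Upk1a and Upk3a chronic 2 held more of them than chronic 1, while the basal level was higher in chronic 1. After the mean of a mesenchymal cell of the same library had been subtracted from every cell, the chronic basal log2 fold change was 0.30 for Upk2 and -0.42 for Upk1a. For Upk3a the mesenchymal mean of chronic 2 exceeded the basal one, which left 0 UMIs there and no fold change that measures a change. The acute basal change of Upk1a was -0.92 and that of Upk3b -1.03 after the same subtraction. No member passed in either form.

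Whether the effect of CPP differed between superficial and basal cells was tested as an interaction, and no member passed (edgeR, adjusted p from 0.317 upward, against 0.0446% of all genes in the acute and 0.0535% in the chronic comparison). The smallest p was that of Upk3b in acute libraries, with a difference of 0.88 (SE 0.25) between superficial and basal cells on the log2 scale (edgeR unadjusted p = 0.0015, adjusted p = 0.317). In the chronic libraries the differences were -0.75 (SE 0.29) for Upk3a and -0.62 (SE 0.28) for Upk2 (adjusted p = 0.696 and 0.722), and 0.87 (SE 0.55) for Upk3bl (adjusted p = 0.88). With free RNA subtracted the chronic difference of Upk2 turned to 0.32 (edgeR adjusted p = 0.971). That of Upk3a does not measure a change, since no basal UMIs were left in chronic 2. The shares of cells with a UMI were compared between groups as well, but 2 libraries against 2 cannot give an exact permutation p below 0.3333.

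**Figure D5:**
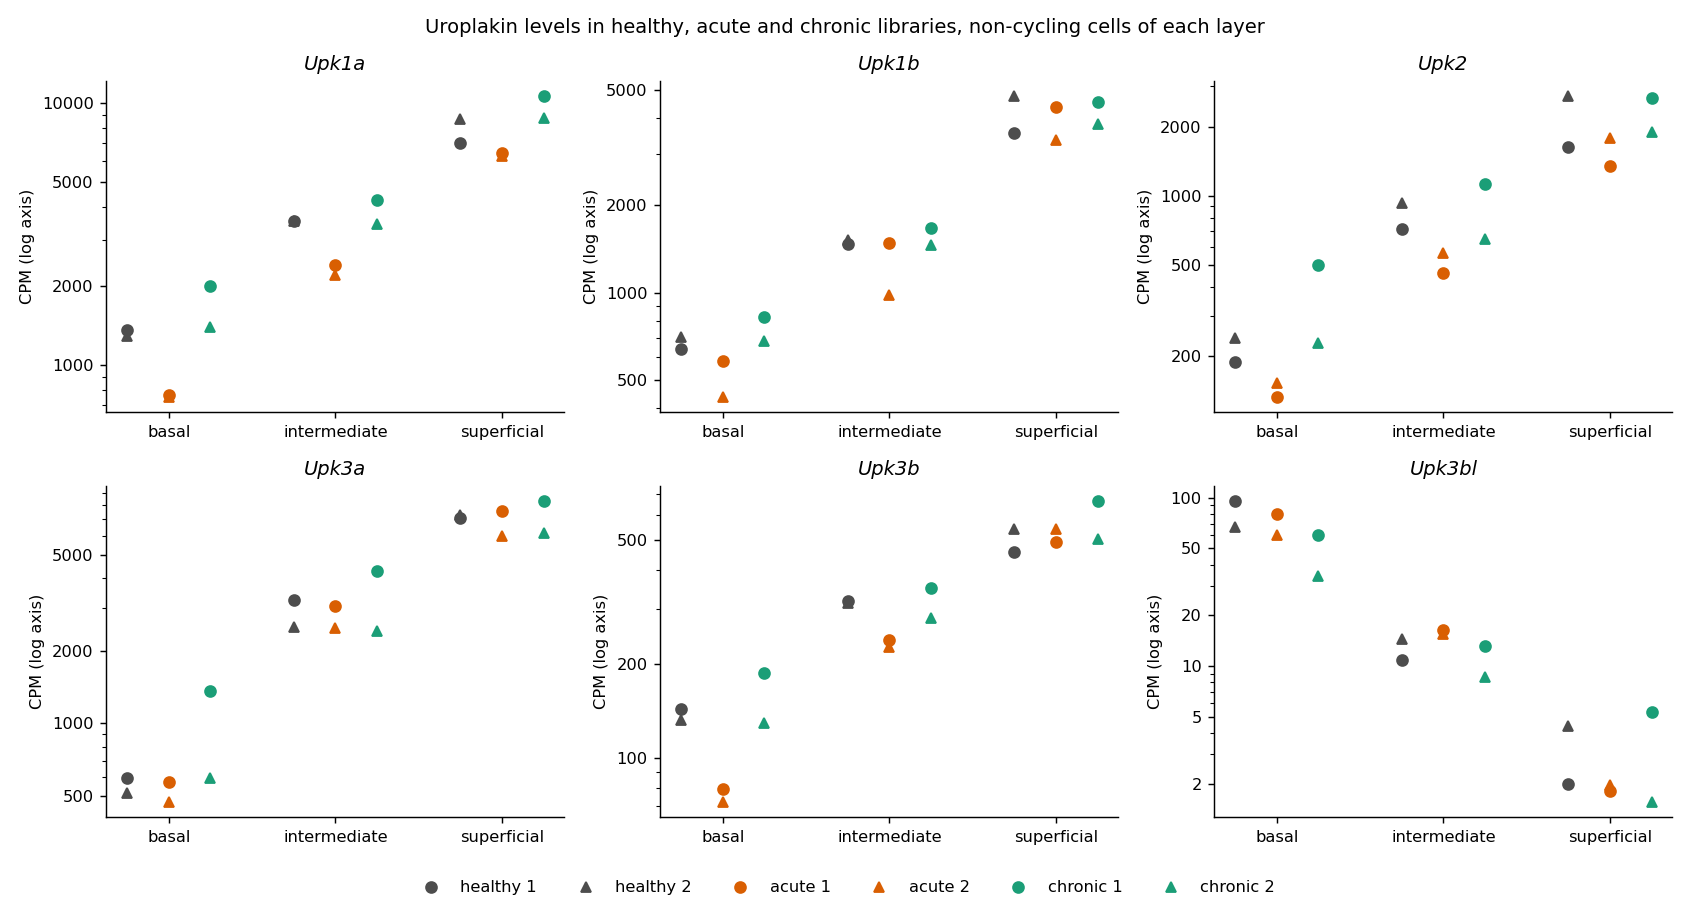
Level of each uroplakin (CPM, log axis) in healthy, acute and chronic libraries, by layer; each point is a library. Upk1a in basal cells sits at 766 and 750.0 in the acute libraries, below the healthy 1354 and 1283, whereas the chronic pair of Upk3a in basal cells spans 594 to 1365.

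Because the layers differ so much, the cells that contribute the uroplakin molecules of a library were counted. Superficial cells, cycling or not, were 3.58% and 3.22% in the healthy, 17.2% and 14.0% in the acute and 10.9% and 12.7% in the chronic libraries, as a share of urothelial cells. Their share of all Upk1a UMIs was 13.5% and 14.0% in the healthy, 57.6% and 44.1% in the acute and 34.8% and 43.3% in the chronic libraries. All 4 acute and chronic values lay above both healthy values. For Upk3a the superficial share was 15.3% and 16.6% in the healthy, 59.5% and 40.1% in the acute and 30.7% and 45.8% in the chronic libraries. Intermediate cells held the most Upk1a UMIs in 5 of the 6 libraries and superficial cells in acute 1. Of the Upk3bl UMIs, basal cells held 58.2% and 55.3% in the healthy, 64.8% and 41.9% in the acute and 28.6% and 35.9% in the chronic libraries. Intermediate cells held 39.1% and 40.9% of them in the healthy, 29.9% and 52.7% in the acute and 64.5% and 58.5% in the chronic libraries. Basal cells were thus the larger source in both healthy libraries and acute 1, and intermediate cells in the other 3. Cells outside the urothelium held 0.669% to 6.11% of the UMIs of the other 5 members. How far recovery of superficial cells during peeling and dissociation set these shares was not tested.

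Mesothelial cells, in which Upk3b is also known, left few traces. Of 6 mesothelial markers, Msln was listed in 4 libraries with 5, 6, 11 and 28 UMIs, and Lrrn4, Wt1, Gpm6a, Bnc1 and Muc16 reached at most 5 UMIs where they were listed. None of the 6 was listed in healthy 1 or acute 1, whose tables hold only genes seen in at least 8 and 6 cells, so these libraries give no value. Upk3b counted 8394 to 14448 UMIs per library.

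To place the members among other genes, each was correlated with 8223 genes over 36 sums (6 urothelial classes in 6 libraries, log2 of CPM plus 1). The sums share libraries and layers, so the coefficients describe these libraries and carry no test. The 5 genes most like Upk1a were Upk3b, Upk2, Upk1b, Pdzk1ip1 and Snx31, with r from 0.97 to 0.98, and 3 of them are members. Those most like Upk1b were Ndrg2, Krt20, Cspg5, Cldn8 and Upk1a (r from 0.98 to 0.99), among them the superficial keratin Krt20 and the tight junction gene Cldn8. Those most like Upk2 were Upk1a, Upk3b, Fdps, Snx31 and Hebp2 (r from 0.97 to 0.98). Snx31, a sorting nexin that binds uroplakins on their way to degradation, was among the 5 for Upk1a, Upk2 and Upk3b. For Upk3a they were Tspan13, Gm13398, Pdzk1ip1, Upk2 and Cspg5 (r from 0.96 to 0.97), led by the tetraspanin gene Tspan13, and for Upk3b Upk1a, Snx31, Upk2, Pdzk1ip1 and Upk1b (r from 0.96 to 0.98). Krt20 helped to define the superficial layer. Upk3bl was unlike the other members, with r of -0.93 to -0.90 against them, and was closest to Ggta1, Ptges, Rgs10, Efnb1 and Ninj1 (r from 0.94 to 0.96).

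Other genes of the same families and routes were counted in the layer comparisons. They were open to the clustering, so their calls describe the layers. Of 19 other tetraspanin genes tested, 9 higher and 3 lower were called in intermediate against basal, 7 higher and 5 lower in superficial against intermediate and 10 higher and 3 lower in superficial against basal cells. Of all genes 43.7%, 55.4% and 65.5% were called in these comparisons, so that 13 of 19 in the last is near the share of all genes. Tspan6 and Tspan13 changed in the direction of the plaque genes, at log2 fold changes of 3.66 (SE 0.097) and 2.30 (SE 0.068) in superficial against basal cells, and Tspan9 in the other, at -1.45 (SE 0.089). Cd63, a tetraspanin of lysosomes, differed by 1.32 (SE 0.11) between superficial and intermediate cells. The median over the tetraspanins was 0.28 in superficial against basal cells, beside 0.0074 over all genes.

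Of 17 genes of vesicle traffic, 10 higher and 2 lower were called in intermediate against basal (22.3% and 21.5% of all genes), 10 higher and 2 lower in superficial against intermediate (27.2% and 28.2%) and 11 higher and 3 lower in superficial against basal cells (33.1% and 32.4%). Snx31 had the smallest p of the list in each comparison, with log2 fold changes of 1.64 (SE 0.11) and 1.42 (SE 0.10) in the 2 steps. The next smallest p in the first step were those of Rab15 and the vesicle fusion gene Vamp8, at 0.41 (SE 0.062) and 0.40 (SE 0.061). Rab27b and Rab11a, GTPases known to carry uroplakin vesicles to the apical membrane, differed by 1.10 (SE 0.067) and 1.28 (SE 0.079) between superficial and basal cells. The median of the list in that comparison was 0.47.

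Among 19 regulators of urothelial differentiation 2 higher and 7 lower, 1 higher and 14 lower and 2 higher and 15 lower were called in the same order of comparisons, beside the shares of all genes just given. In the first of these, 9 of 19 is near the 43.7% of all genes. The transcription factor genes Klf4, Fosl1 and Trp63 had the smallest p, at -3.23 (SE 0.11), -2.99 (SE 0.094) and -2.46 (SE 0.095) in superficial against basal cells, in the direction of Upk3bl. Trp63 also served as a basal marker. The median of the list was -0.63 in that comparison. In the 6 injury comparisons no gene of the 3 lists passed. The genes with the smallest p were Cd81 in chronic basal cells (log2 fold change 1.21, unadjusted p = 0.0029) among the tetraspanins, Snx31 in acute basal cells (-0.74, unadjusted p = 0.0198) among the vesicle genes and Klf5 in acute basal cells (0.84, unadjusted p = 0.017) among the regulators.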

How the data were processed

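Single-cell suspensions of bladder mucosa were sequenced in 6 libraries (10x Genomics 3′ chemistry), and the authors deposited UMI counts per gene and barcode, 1 table a library. Per the labels the submitters' processing notes name Cell Ranger and the build mm10. The filter on barcodes required more than 500 genes and less than 10% mitochondrial UMIs, and Scrublet scores marked 4.28% to 11.1% of a library as doublets, which were left out together with the rest of a cluster of 1687 cells in which 55.1% were so marked. Clusters were made on integrated data (Seurat 5.3.0, scanpy 1.11.5) without the 6 uroplakins, on 3000 features. Urothelial sub-clusters were called superficial or basal where the standardized mean of that marker list exceeded 1, and intermediate otherwise. Counts were added up over the cells of a class in each library where it had 20 cells or more and tested with edgeR 4.0.16 (quasi-likelihood, TMM, filterByExpr, Benjamini-Hochberg adjustment over all genes tested, threshold 0.05), with the library as a block between classes; DESeq2 1.42.0 was an alternative. Exact permutation tests used the 6 libraries as pairs. Calls across genes were tested on simulated data.

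The named genes were the 6 members, the 3 genes of each list with the smallest p in layer and injury comparisons, and the 5 genes most correlated with each member. Members and lists were chosen with earlier results of these data known. Which animals went into which library is not given in the sources used here, so p-values concern libraries and not animals. In the 6 injury comparisons they measure the spread between these libraries. Where the library was a block or a pair, they measure how far differences within libraries varied among them. In 1 table the last line was cut short and was not used. Promoters came from a RefSeq table in which 4 of the 6 members matched.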

Additional observations from a re-analysis of the deposited data

How the results depend on the processing

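All 6 members were called in each layer comparison, in the same direction, under every alternative that gave a value. These alternatives included each library left out in turn. With free RNA subtracted, 0 Upk3a UMIs were left in basal cells of chronic 2, where subtraction exceeded the level. Upk3a values against basal cells and in chronic basal cells are then not measurements of a change. They are left out above, and those whose sign turned are listed below for completeness only. The basal and mesenchymal comparison and the cycling comparisons did not all hold. With clusters made without integration, acute 2 had too few basal cells for a sum, so basal values of that alternative lack this library. Against 2 members called in cycling basal cells, there were 1 with DESeq2, 0 with clusters made without integration, 5 with layers assigned cell by cell and 1 with free RNA subtracted, and 0 to 2 when a library was left out. Against 3 in cycling superficial cells there were 0 with layers assigned cell by cell; the cause was not tested. The sign of values that had not passed turned in the following, all on the log2 scale and with causes that were not tested. With layers assigned cell by cell, the value was -0.46 for Upk3a in cycling basal cells (edgeR adjusted p = 0.0349), 0.059 for Upk2 in cycling superficial cells, -0.35 for Upk3bl in cycling superficial cells, 0.29 for Upk3a in acute basal cells, 0.064 for Upk3a in acute intermediate cells, 0.22 for Upk1b in acute superficial cells, 0.19 for Upk3a in acute superficial cells, 0.080 for Upk1b in chronic superficial cells and 0.10 for Upk3a in chronic superficial cells. With cycling cells called at 4 median absolute deviations, the value was 0.076 for Upk2 in cycling intermediate cells and -0.0088 for Upk2 in chronic superficial cells. With doublets kept, the value was -0.082 for Upk3a in basal against mesenchymal cells and 0.025 for the mesenchymal share of Upk2. With clusters made without integration, the value was 0.099 for Upk3bl in acute basal cells, -0.12 for Upk1a in chronic intermediate cells, -0.19 for Upk1b in chronic intermediate cells, -0.18 for Upk2 in chronic intermediate cells, -0.083 for Upk3a in chronic intermediate cells, -0.19 for Upk3b in chronic intermediate cells, 0.99 for Upk3bl in chronic intermediate cells, -0.19 for Upk3b in acute superficial cells, -0.39 for Upk2 in chronic superficial cells and -0.055 for Upk3b in chronic superficial cells. With free RNA subtracted, the value was -0.42 for Upk1a in chronic basal cells, -0.71 for Upk1b in chronic basal cells, -0.024 for Upk3a in chronic basal cells, -0.57 for Upk3b in chronic basal cells, -0.072 for Upk1a in chronic intermediate cells, -0.17 for Upk1b in chronic intermediate cells, -0.041 for Upk2 in chronic intermediate cells, -0.24 for Upk3b in chronic intermediate cells, -0.0086 for Upk2 in chronic superficial cells, 0.32 for the chronic difference of Upk2 between superficial and basal cells and 1.501 for the chronic difference of Upk3a between superficial and basal cells. Of these, the Upk3a values of -0.024 and 1.501 rest on the 0 UMIs left in basal cells of chronic 2 and measure no change. Without a filter on low counts, the value was 0.0018 for Upk1b in chronic superficial cells and 0.0035 for Upk3a in chronic superficial cells. With the stricter cell filter, the value was 0.10 for Upk1b in chronic superficial cells and -0.059 for Upk2 in chronic superficial cells. With a library left out, these values took both signs: Upk2 in cycling intermediate cells from -0.11 to 0.015, Upk2 in cycling superficial cells from -0.21 to 0.0068, Upk3bl in cycling superficial cells from -0.028 to 0.61, Upk3a in basal against mesenchymal cells from -0.0047 to 0.48, Upk3a in acute basal cells from -0.12 to 0.037, Upk3bl in acute basal cells from -0.38 to 0.069, Upk1b in chronic basal cells from -0.0084 to 0.39, Upk3b in chronic basal cells from -0.12 to 0.54, Upk3a in acute intermediate cells from -0.21 to 0.14, Upk1a in chronic intermediate cells from -0.061 to 0.34, Upk1b in chronic intermediate cells from -0.065 to 0.23, Upk2 in chronic intermediate cells from -0.38 to 0.52, Upk3a in chronic intermediate cells from -0.28 to 0.64, Upk3b in chronic intermediate cells from -0.20 to 0.21, Upk3bl in chronic intermediate cells from -0.60 to 0.11, Upk1b in acute superficial cells from -0.33 to 0.14, Upk3b in acute superficial cells from -0.10 to 0.21, Upk1b in chronic superficial cells from -0.24 to 0.24, Upk2 in chronic superficial cells from -0.31 to 0.47, Upk3a in chronic superficial cells from -0.23 to 0.17, Upk3bl in chronic superficial cells from -1.004 to 0.79, the mesenchymal share of Upk2 from -0.037 to 0.055 and the mesenchymal share of Upk3a from -0.0060 to 0.11. Nothing in the labels pairs libraries by replicate number, and same-numbered deviations correlated by 0.23 to 0.39 between healthy and acute and by -0.46 to -0.22 between chronic and either group, over the 3 layers; with the replicate block, 0 members were called in the 6 injury comparisons, as without it, and 0 to 3 genes in all. Over the alternatives the number of all genes called ran from 3201 to 5146 between intermediate and basal cells (as reported 4844), 664 to 3727 in cycling basal (2075), 83 to 2081 in cycling intermediate (142) and 2074 to 3950 in cycling superficial cells (3429). In the 6 injury comparisons it ran from 0 to 62 (as reported 0 to 4) and in the interactions from 0 to 54 (as reported 5 and 6). With 2 libraries a group, no injury effect on a member passed, and the chronic 2 library held few mesenchymal cells, which limits the free RNA reference there.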
